A study of Homo sapiens with 6 samples.

Results

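The genes of macroautophagy and mitophagy were followed in MM.1S, an established human line grown from a multiple myeloma, after knockdown of PRMT1, the main enzyme that places asymmetric dimethyl marks on arginines. The set held 46 genes of the 58735 in the expression table, picked by symbol for their known role in autophagosome formation, cargo selection, removal of mitochondria or fusion with the lysosome; the rule uses no measured value. RNA sequencing covered 3 libraries of cells transfected with a negative control siRNA (si-NC, here Control) and 3 of cells transfected with siRNA against PRMT1 (PRMT1 KD). In both groups the siRNA was given at 100 nM and RNA was taken 72 h after transfection. Both groups were otherwise the same wild-type line, and the knockdown was transient. Which PRMT1 siRNA was sequenced is not given in the sources used here, so an effect of one siRNA on other targets cannot be told apart from the loss of PRMT1. The labels number the replicates and the study's methods call its replicates biological and dependent, without saying that the cultures were separate. The p-values measure the spread between these libraries.

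In autophagy a kinase complex around ULK1 and a lipid kinase complex around PIK3C3 start a membrane sac, which lipids and vesicles from other membranes enlarge. A conjugation cascade attaches the ATG8 proteins, the LC3 and GABARAP families, to that membrane, and receptors that bind both ubiquitin and ATG8 bring in the cargo. The closed autophagosome then fuses with the lysosome. Mitophagy uses the same route with receptors on the mitochondrion or with ubiquitin chains that PINK1 marks. Myeloma cells secrete large amounts of immunoglobulin and are known to depend on autophagy beside the proteasome. Much of the control lies in phosphorylation, lipidation and flux, which messenger RNA levels do not measure.

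The libraries held 16064769 to 16465026 reads on genes in Control and 14439217 to 16313196 in PRMT1 KD. PRMT1 itself fell from 61.1 ± 1.97 to 13.3 ± 0.775 FPKM (SD, n = 3 in each group), a log2 difference of -2.13 with a limma adjusted p of 2.77e-05. FPKM is the read count of a gene relative to gene length and library size, and every difference in this text is PRMT1 KD minus Control on the log2(FPKM + 1) scale. All 9 plasma cell markers had a mean of at least 1 FPKM, while 1 of 12 markers of other marrow and blood cells did (CD3E, at 33.4 FPKM in Control and 38.1 in PRMT1 KD). Reads on mitochondrial genes took 6.13 to 6.23% in Control and 5.39 to 5.90% in PRMT1 KD, and the part of this in the results was not tested. In RNA from many cells, fewer cells in one state and less RNA in every cell cannot be told apart.

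No gene of the 46-gene set passed the adjusted threshold of the limma fit after the knockdown. Of the 46 genes, 42 had a mean of at least 1 FPKM over the 6 libraries and were tested. None of the 42 passed an adjusted p under 0.05 in limma, where 2.05% of all 13585 genes tested did. At an unadjusted p under 0.05 there were 9 of 42 (21.4%), beside 19.5% of all genes tested. Of the 9, 4 were higher (10.1% of all genes tested were) and 5 lower (9.47% were). Fitted by voom to the reads worked back from FPKM, 1 of the 42 (2.38%), CALCOCO2, passed the adjusted threshold and 8 (19.0%) had an unadjusted p under 0.05, against 6.82 and 22.3% of all genes in the same fit. Every mean in PRMT1 KD lay between 83.4 and 122% of the Control mean. None of the 42 was under 80% or over 125% of Control, against 16.1% of all genes tested. The 42 genes were also read more deeply, with a median of 793 reads a library and none under 113, against a median of 453 over all genes tested, some of them at 0 reads in a library. The median size of the difference, whatever its sign, was 0.09 for the 42 genes and 0.11 for all genes tested. The median difference of the 42 genes was 0.005, with 23 above and 19 below 0, and the median over all genes tested was 0.01.

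These are also bounds. The median standard error over the 42 genes was 0.067 on the log2 scale, and 40 of the 42 intervals of 95% confidence lay wholly within 0.5 of 0. The exceptions were PINK1, whose interval reached down to -0.58, and TAX1BP1, whose interval reached up to 0.50. Of all 13585 genes tested, 10712 had such an interval. The log2(FPKM + 1) scale understates differences of low genes, and that of PINK1 was -0.21 here and -0.30 by voom on the reads. In 15 of the 42 genes (35.7%) the PRMT1 KD values did not overlap the Control values, and the same held for 25.9% of all genes tested. Of the 15, 8 were higher and 7 lower, beside 13.6 and 12.3% of all genes tested. Differences above and below 0 stood in each step of the pathway, as the gene by gene plot of differences shows.

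**Figure D1:**
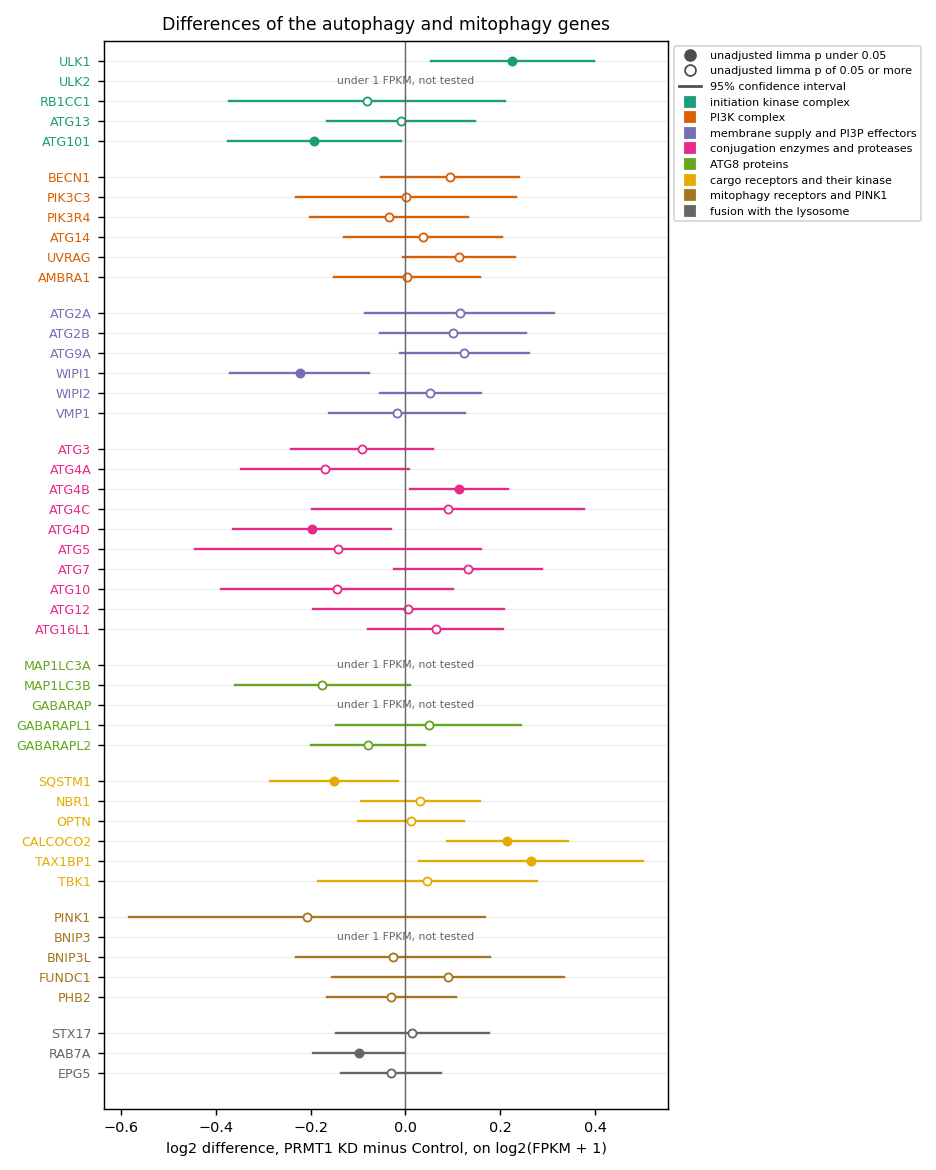
Log2 difference of each autophagy or mitophagy gene, PRMT1 KD minus Control, with its 95% confidence interval from limma over 3 libraries a group, grouped by step and coloured by it. Filled points have an unadjusted p under 0.05 and none passes the adjusted threshold; the 9 filled points lie on both sides of 0, and 4 genes are under 1 FPKM and carry no point.

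**Figure D2:**
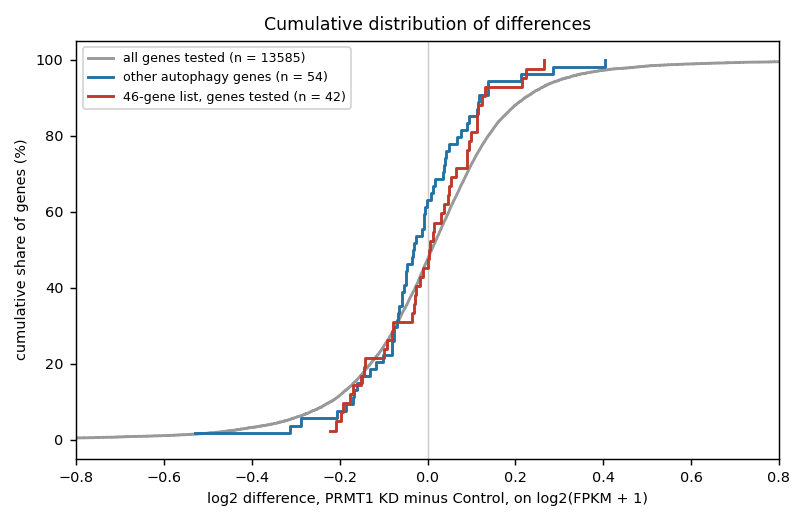
Cumulative share of genes (vertical axis, percent) by log2 difference (horizontal axis, PRMT1 KD minus Control) for the 42 tested genes of the set, 54 other autophagy genes and all 13585 genes tested, with the horizontal axis cut at 0.8 on both sides. The 42 genes run from -0.22 to 0.26 and their median sits at 0.005, beside 0.01 for all genes tested.

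In the initiation kinase complex 2 of the 4 genes tested (50%) had an unadjusted p under 0.05 in limma, beside 19.5% of all genes tested. These were ULK1, above Control, and ATG101, below it, and none of the 4 passed the adjusted threshold. ULK1, the kinase that starts the process, was at 7.10, 7.16 and 6.71 FPKM in Control libraries 1 to 3 and at 9.24, 8.09 and 7.74 FPKM in PRMT1 KD libraries 1 to 3. Every PRMT1 KD library lay above every Control library, and the first stood highest. The difference was 0.23 ± 0.073 (SE), with an unadjusted p of 0.0176 and an adjusted p of 0.156 in limma. ATG101, the small subunit that steadies ATG13 in the same complex, was at 7.08, 8.01 and 7.32 FPKM in Control and at 6.21, 7.08 and 5.97 FPKM in PRMT1 KD. Here the highest PRMT1 KD library lay barely below the lowest Control library. Its difference was -0.19 ± 0.077 with an adjusted p of 0.236, and 53.0% of its coding bases lie under an annotated gene on the opposite strand, so that reads from either may be shared. RB1CC1, the long scaffold also known as FIP200 and the subunit with the highest level, was at 17.0 ± 2.34 FPKM in Control and 15.98 ± 2.25 in PRMT1 KD, and its sign turns without Control replicate 3 (0.02) or PRMT1 KD replicate 2 (0.01). ULK2, the sister kinase of ULK1, gave 0 to 7 reads a library and was not tested.

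In the PIK3C3 complex, which marks the membrane with the lipid PI3P, 0 of 6 genes had an unadjusted p under 0.05 in limma, beside 19.5% of all genes tested, and 2 of 6 (33.3%) had groups that did not overlap, beside 25.9%. The voom fit called none of the 6 at the adjusted threshold. UVRAG, the subunit that replaces ATG14 in the endosomal form of the complex, had the smallest p. It was at 11.4, 10.9 and 11.4 FPKM in Control and at 12.5, 11.7 and 12.4 FPKM in PRMT1 KD, which did not overlap, and differed by 0.11 ± 0.050 (adjusted p of 0.275 in limma). BECN1, the Beclin 1 subunit that BCL2 can hold back, also had groups that did not overlap, with 5.04 ± 0.311 FPKM in Control and 5.44 ± 0.0573 in PRMT1 KD, while 17.1% of its exon bases lie under genes of the other strand. ATG14, which directs the complex to autophagosomes, was at 5.82 ± 0.431 FPKM in Control and 5.99 ± 0.313 in PRMT1 KD. AMBRA1, the Beclin 1 partner with the highest level of the group, stood at 12.03 ± 0.632 FPKM in Control and 12.07 ± 0.781 in PRMT1 KD, with an interval from -0.15 to 0.16, and the sign of its difference of 0.003 turned in 4 of 15 alternatives, down to -0.05 without PRMT1 KD replicate 1. PIK3C3 itself and its regulatory subunit PIK3R4 reached 99.7 and 97.6% of Control.

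Among the proteins that bring lipid or read PI3P, WIPI1 stood apart from its relative. WIPI1, a PI3P reader, was at 8.64, 8.55 and 8.82 FPKM in Control and at 6.78, 7.29 and 7.82 FPKM in PRMT1 KD. All 3 knockdown libraries were below all 3 Control libraries. The difference of -0.22 ± 0.062 was the most negative of the 42 genes (unadjusted p of 0.00865, adjusted p of 0.118 in limma). WIPI2, the reader that recruits ATG16L1, was at 15.96, 15.07 and 15.39 FPKM in Control and at 16.04, 16.12 and 16.07 FPKM in PRMT1 KD. It lay slightly above Control without overlap and differed by 0.05 ± 0.045. In each library WIPI1 thus made up a smaller share of the summed WIPI FPKM after the knockdown, 35.1 to 36.4% in Control and 29.7 to 32.7% in PRMT1 KD. That share was computed after the values were seen and is given with no test. Exons of ARSG and a second gene on the other strand cover 28.1% of WIPI1's exon bases but 3.31% of its coding bases, and ARSG was at 2.78 FPKM in Control and 3.33 in PRMT1 KD. Its part in the WIPI1 values was not tested.

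Of the 6 genes that bring lipid or read PI3P, 1 (16.7%), WIPI1, had an unadjusted p under 0.05 in limma, beside 19.5% of all genes tested. The lipid carriers of the growing sac did not reach that level. The lipid transfer proteins ATG2A and ATG2B were at 110 and 109% of Control, with overlapping groups for each. ATG9A, the scramblase whose vesicles seed the membrane, was at 8.49, 7.67 and 7.71 FPKM in Control and at 8.56, 8.94 and 8.76 FPKM in PRMT1 KD. Its lowest knockdown library lay just above its highest Control library, and the difference was 0.12 ± 0.058 with an adjusted p of 0.294 in limma. A further gene model on the same strand covers 38.8% of its exon bases, and that model took 3 to 10 reads a library. VMP1, a scramblase of the endoplasmic reticulum, was at 98.7% of Control.

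The conjugation machinery was measured for all of its 10 genes, of which 2 (20%) had an unadjusted p under 0.05 in limma, beside 19.5% of all genes tested. ATG4B, the protease that both primes ATG8 proteins and cuts them from the membrane, was at 17.2, 17.6 and 17.3 FPKM in Control and at 19.4, 18.5 and 18.7 FPKM in PRMT1 KD. ATG4D, a protease of the same family, was at 17.7, 16.9 and 16.6 FPKM in Control and at 16.4, 14.0 and 14.0 FPKM in PRMT1 KD. Neither gene's groups overlapped, and they lay on opposite sides of Control. ATG4B differed by 0.11 ± 0.044 (unadjusted p of 0.0364, adjusted p of 0.220 in limma). ATG4D differed by -0.20 ± 0.070 (unadjusted p of 0.0267, adjusted p of 0.189 in limma). Exons of KRI1 on the opposite strand cover 15.0% of ATG4D's exon bases and 0% of its coding bases. Their part in the ATG4D values was not tested. ATG4A, which acts mainly on the GABARAP branch, was at 87.7% of Control with overlapping groups, and ATG4C was at 107%. Of the summed FPKM of the 4 proteases, ATG4B held 34.5 to 36.5% in Control and 38.8 to 40.3% in PRMT1 KD, a share again computed after the values were seen and not tested. The sum itself was 49.2 ± 0.927 FPKM in Control and 47.7 ± 1.56 in PRMT1 KD.

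None of the other conjugation enzymes reached an unadjusted p under 0.05. ATG7, the E1 enzyme that activates both ATG12 and ATG8, was at 4.48, 4.27 and 4.31 FPKM in Control and at 4.82, 4.58 and 5.22 FPKM in PRMT1 KD. Its groups did not overlap, and its difference of 0.13 ± 0.066 had an adjusted p of 0.328 in limma. Exons of VGLL4 on the opposite strand cover 18.1% of ATG7's exon bases and 0% of its coding bases, which was not tested either. ATG5, the partner of ATG12 in the conjugate that directs lipidation, was at 5.52, 5.95 and 6.06 FPKM in Control and at 4.57, 4.59 and 6.63 FPKM in PRMT1 KD. PRMT1 KD libraries 1 and 2 lay below Control and library 3 above it, which gave ATG5 one of the widest intervals, from -0.44 to 0.16. The E2 enzymes ATG3 and ATG10 were at 93.5 and 88.2% of Control, and ATG12 and ATG16L1 at 100.2 and 105%.

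The ATG8 proteins differed far more among themselves than between conditions. GABARAPL2, also known as GATE-16, made up 70.4 ± 0.656% of the family's summed FPKM in Control and 70.1 ± 1.29% in PRMT1 KD. GABARAP entered this sum with 8 to 16 reads a library, from which its expression cannot be read. The shares of this family therefore describe the genes as counted. GABARAPL2 was at 26.7, 27.1 and 24.5 FPKM in Control and at 24.4, 24.8 and 24.7 FPKM in PRMT1 KD, with overlapping groups. Its difference of -0.08 ± 0.051 was -0.05 without Control replicate 2 and -0.12 without Control replicate 3. MAP1LC3B, the LC3 gene whose protein is the usual autophagosome marker, was at 6.92, 7.05 and 6.65 FPKM in Control and at 5.27, 6.34 and 6.36 FPKM in PRMT1 KD. All knockdown libraries lay below Control, the first by the widest margin. The difference of -0.18 ± 0.078 had an unadjusted p of 0.0592 and an adjusted p of 0.275 in limma, and was -0.10 without PRMT1 KD replicate 1.

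As a share of the family, MAP1LC3B held 18.6 ± 0.355% in Control and 17.0 ± 1.49% in PRMT1 KD, with an exact two-sided permutation p of 0.1, the smallest that 3 libraries against 3 allow. GABARAPL1, a stress-responsive relative, was at 3.93, 3.64 and 3.61 FPKM in Control and at 4.11, 4.16 and 3.44 FPKM in PRMT1 KD, its share was 10.1 ± 0.442 and 11.1 ± 1.13%, and the exact permutation p was 0.3. Benjamini-Hochberg adjustment over these 2 shares gave 0.2 and 0.3. In percentage points the difference in the MAP1LC3B share was -1.56, and -0.722 without PRMT1 KD replicate 1. That in the GABARAPL1 share was 1.02, 0.590 without PRMT1 KD replicate 1 and 1.66 without PRMT1 KD replicate 3. The plot of family shares shows that the order GABARAPL2, MAP1LC3B, GABARAPL1 was the same in each of the 6 libraries.

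**Figure D3:**
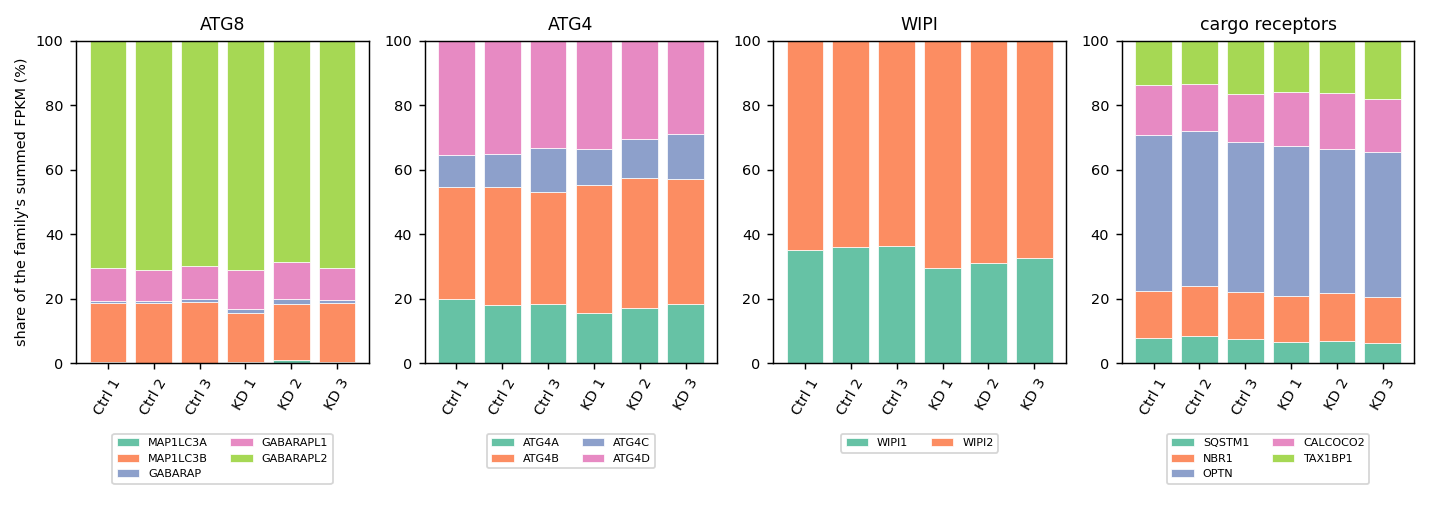
Share of each gene (vertical axis, percent) in the summed FPKM of 4 groups of related genes, one stacked bar for each of the 3 Control (Ctrl) and 3 PRMT1 KD libraries. GABARAPL2 takes about 70% of the ATG8 bar in each library, as counted, with GABARAP nearly unread. WIPI1 takes 35.1 to 36.4% of the WIPI bar in Control and 29.7 to 32.7% in PRMT1 KD.

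The remaining ATG8 genes were nearly unread. MAP1LC3A gave 2 to 9 reads a library and its exons overlap no other annotated gene. GABARAP, the founding member of its branch, gave 8 to 16 reads a library, at 0.213, 0.219 and 0.240 FPKM in Control and 0.401, 0.490 and 0.406 FPKM in PRMT1 KD. The groups did not overlap, but these are values of a few reads each, under the level for testing. The gene lies at chr17:7240014-7242770 on GRCh38, and exons of AC120057.2 on the same strand and AC120057.3 on the opposite strand cover 55.7% of its exon bases and 98.3% of its 357 coding bases. AC120057.2 had 0 reads in all 6 libraries and AC120057.3 had 68 to 123. The counting tool by default leaves out reads that fall on more than 1 gene, and the settings used here are not given. How much GABARAP these cells expressed cannot be read from such values, and the part of the overlap in them was not tested. Of the genes tested, 1.35% have a higher share of exon bases under other genes. The genes tested had passed a filter on level that GABARAP did not reach, so this set was itself chosen by reads. Reads could also be split with near copies. Of those looked at, MAP1LC3B2 took 15 to 32 reads a library beside 462 to 609 for MAP1LC3B, and the GABARAPL3 and BNIP3P1 models had 0.

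Among the cargo receptors, SQSTM1 and CALCOCO2 lay on opposite sides of Control. Of the 6 genes of this step, the receptors and the kinase TBK1, 3 (50%) had an unadjusted p under 0.05 in limma. These were SQSTM1, CALCOCO2 and TAX1BP1, beside 19.5% of all genes tested, and none passed the adjusted threshold in limma. SQSTM1, or p62, binds ubiquitinated aggregates and is itself degraded by autophagy. It was at 5.70, 5.95 and 5.47 FPKM in Control and at 4.97, 5.08 and 5.05 FPKM in PRMT1 KD. The knockdown libraries were tightly grouped below Control, with a difference of -0.15 ± 0.057 (unadjusted p of 0.0326, adjusted p of 0.209 in limma). Exons of MRNIP and MGAT4B on the opposite strand cover 22.0% of SQSTM1's exon bases and 14.9% of its coding bases, and their part in its values was not tested. CALCOCO2, or NDP52, a receptor for bacteria and for damaged mitochondria, was at 11.3, 10.5 and 10.6 FPKM in Control and at 12.2, 12.9 and 13.0 FPKM in PRMT1 KD. All 3 knockdown libraries lay above Control. Its difference of 0.21 ± 0.054 had the smallest p of the 42 genes, 0.00533 unadjusted and 0.0989 adjusted in limma, while voom on the reads gave 0.23 and an adjusted p of 0.0399. Its adjusted p ranged from 0.0399 to 0.265 over the alternatives.

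TAX1BP1, a receptor closely related in sequence to CALCOCO2, was at 9.99, 9.40 and 11.8 FPKM in Control and at 11.7, 12.1 and 14.2 FPKM in PRMT1 KD. Library 3 was the highest in both groups, and the lowest knockdown library lay just under the highest Control library. Its difference of 0.26 ± 0.0999 was the most positive of the 42 genes (unadjusted p of 0.0331, adjusted p of 0.210 in limma). OPTN, the optineurin receptor of mitophagy, had the highest level of the group at 34.0 ± 0.973 FPKM in Control and 34.3 ± 1.32 in PRMT1 KD, with an interval from -0.10 to 0.12 around a difference whose sign turns under median scaling (-0.01) and without Control replicate 3 (-0.01) or PRMT1 KD replicate 3 (-0.02). NBR1, a receptor that joins SQSTM1 on aggregates, was at 102% of Control, and TBK1, the kinase that strengthens the grip of several receptors, at 103%. The 5 receptors together summed to 71.6 ± 0.992 FPKM in Control and 75.6 ± 2.93 in PRMT1 KD. SQSTM1 made up 7.66 to 8.41% of that sum in Control and 6.39 to 6.84% in PRMT1 KD, and CALCOCO2 14.8 to 15.6 and 16.4 to 17.3%. These sums and shares were formed after the values were seen and carry no test.

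**Figure D4:**
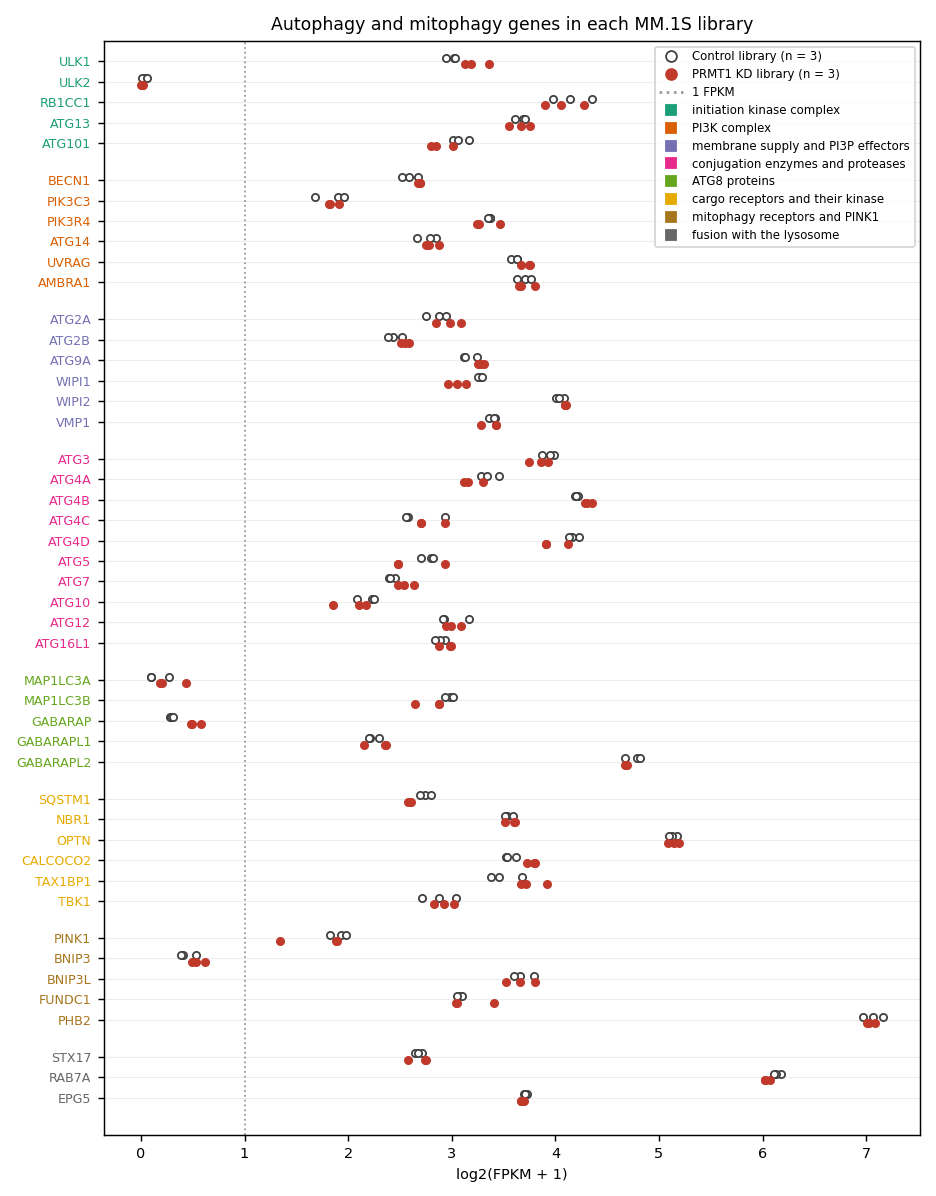
Level of each autophagy or mitophagy gene as log2(FPKM + 1) in the 3 Control (open) and 3 PRMT1 KD (filled) libraries, grouped by step, with 1 FPKM as a dotted line. Levels run from the 4 genes left of the line to PHB2 at 133 FPKM in Control, and the gap between genes is far wider than the gap between conditions.

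Of the 4 mitophagy genes tested, 0 had groups that did not overlap, beside 25.9% of all genes tested. PINK1, the kinase that accumulates on damaged mitochondria, was at 2.81, 2.95 and 2.54 FPKM in Control and at 2.70, 2.69 and 1.53 FPKM in PRMT1 KD. One library, PRMT1 KD 3, was low and the other two lay within Control. The difference was -0.21 ± 0.158 (p of 0.232, adjusted p of 0.515 in limma), and without PRMT1 KD replicate 3 it was -0.03. PINK1-AS and a microRNA gene cover 41.7% of its exon bases and 47.7% of its coding bases. PINK1-AS took 83 to 118 reads a library beside 113 to 230 for PINK1, and since the use of strand in the counting is not given, reads of the pair may not be told apart.

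The receptors that sit in the mitochondrial membrane overlapped between groups as well. BNIP3L, or NIX, which removes mitochondria during red cell maturation and in hypoxia, was at 11.6, 11.1 and 12.8 FPKM in Control and at 10.5, 11.6 and 12.9 FPKM in PRMT1 KD. FUNDC1, a hypoxia-responsive receptor of the outer membrane, was at 7.42, 7.58 and 7.31 FPKM in Control and at 7.27, 7.25 and 9.62 FPKM in PRMT1 KD, with the third knockdown library alone standing high. BNIP3, the hypoxia-induced relative of BNIP3L, was at 0.307 to 0.443 FPKM in Control and 0.404 to 0.530 in PRMT1 KD, from 27 to 43 reads, and was not tested. PHB2, an inner membrane receptor that also scaffolds mitochondrial proteins, had the highest level of all 46 genes. It was at 133.3, 142.4 and 124.5 FPKM in Control and at 127.4, 134.97 and 129.3 FPKM in PRMT1 KD, with an interval from -0.17 to 0.11 around a difference of -0.03 that turned to 0.02 without Control replicate 2.

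Of the 3 genes for fusion with the lysosome, 1 (33.3%), RAB7A, had an unadjusted p under 0.05 in limma, beside 19.5% of all genes tested. RAB7A, the small GTPase of late endosomes, was at 71.5, 69.1 and 67.9 FPKM in Control and at 64.1, 64.2 and 66.2 FPKM in PRMT1 KD. All knockdown libraries lay below Control, by a difference of -0.10 ± 0.041 (unadjusted p of 0.0465, adjusted p of 0.246 in limma). EPG5, a tether of autophagosomes to late endosomes, also had groups that did not overlap, but at 97.7% of Control. STX17, the SNARE on the closed autophagosome, was at 101% of Control.

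Outside the 46 genes, a list of 63 other autophagy genes, drawn up from general knowledge of the pathway but with earlier results of these data known, had 54 genes above the level for testing. Of these, 3 passed the adjusted threshold in limma (5.56%), 1 of them higher (1.07% of all genes tested were) and 2 lower (0.986% were). TP53INP1, a p53 target whose protein binds ATG8 proteins, rose from 53.7 ± 1.66 to 71.3 ± 1.77 FPKM (0.40 ± 0.043, adjusted p of 0.0154). Its relative TP53INP2, which binds ATG8 proteins and is also known to work in the nucleus, fell from 13.6 ± 0.951 to 9.14 ± 0.789 FPKM (-0.53 ± 0.078, adjusted p of 0.0327). TOMM7, a small subunit of the mitochondrial import pore that helps to hold PINK1 on the outer membrane, fell from 40.1 ± 2.24 to 32.1 ± 1.26 FPKM (-0.31 ± 0.056, adjusted p of 0.0477). The TOMM7 and TP53INP2 calls were lost whichever library was left out, with adjusted p up to 0.173 and 0.143, and the TP53INP1 call was lost in 5 of the 6 such fits, with adjusted p up to 0.102. The differences stayed between -0.33 and -0.27 for TOMM7, between -0.58 and -0.46 for TP53INP2 and between 0.38 and 0.42 for TP53INP1. TOMM7 also lost its call with replicate number as a block (adjusted p of 0.0501), after rescaling to TPM (0.0558), with no filter (0.123) and without the trend (0.0917). TP53INP2 lost its call with no filter (limma adjusted p of 0.0971) and without the trend (0.0654). TP53INP1 lost it without the trend (0.0559).

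At an unadjusted p under 0.05 there were 11 of 54 (20.4%), beside 19.5% of all genes tested, 4 of them higher (7.41%, beside 10.1%) and 7 lower (13.0%, beside 9.47%). The 8 that did not pass the adjusted threshold are named here after their values were seen. Below Control were YKT6, a SNARE of autophagosome fusion (-0.21), VPS18 (-0.19) and VPS39 (-0.15), subunits of the HOPS tether, the tether TECPR1 (-0.17) and TFEB. Above Control were FYCO1, which links vesicles to kinesin (0.28), the receptor of endoplasmic reticulum turnover ATL3 (0.21) and FBXO7, a ubiquitin ligase subunit (0.12). TFEB is the transcription factor best known for switching on autophagy and lysosome genes, and is given by library because its motif was searched for in the promoters. It was at 14.8, 15.1 and 13.7 FPKM in Control and at 13.1, 12.03 and 10.1 FPKM in PRMT1 KD. All knockdown libraries lay below Control, by -0.29 ± 0.092 (unadjusted p of 0.0169, adjusted p of 0.153 in limma). Its relatives TFE3 and MITF were at 96.5 and 104% of Control with overlapping groups.

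The promoters were read for the motifs of the factors best known to drive autophagy genes. RefSeq promoter windows of 250 bases before to 50 bases after the start, on GRCh38.p14, matched 38 of the 46 genes. The core of the CLEAR element bound by TFEB, TCACGTGA, stood in 1 of the 38 (2.63%), against 2.36% of the promoters of genes tested and 1.18% of all promoters, on either strand. The FoxO motif TTGTTTAC stood in none of the 38, against 1.04 and 1.18%. The E-box CACGTG, which lies within the CLEAR core and is bound by many other factors, stood in 4 of 38 (10.5%), against 13.0 and 8.77%. The 5 E-box matches are printed with the bases around them, since they are the sequences the counts rest on, each on the strand of its gene with the motif in capitals. The ATG3 sites lie at chr3:112561964-112561991 and chr3:112561941-112561968, the BNIP3 site at chr10:131982041-131982068 and the ATG14 site at chr14:55411835-55411862, all on the minus strand. The TBK1 site lies at chr12:64452078-64452105 on the plus strand.
ATG3, upstream site: ctttctcacgtCACGTGccgggagagtc
ATG3, downstream site: gagtctagtgtCACGTGaggccccggtg
BNIP3: cgcacgcgccgCACGTGccacacgcacc
TBK1: cggccgtcggtCACGTGgcctccggcca
ATG14: aaacaaaatccCACGTGactggctctcc
The downstream ATG3 site is the CLEAR match. The differences of ATG3, TBK1 and ATG14 were -0.09, 0.05 and 0.04, none past the threshold, and BNIP3 was not tested. A match is a description of letters and shows no binding.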

How the data were processed

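RNA sequencing of MM.1S cells was analysed in 3 Control and 3 PRMT1 KD libraries, grouped by their labels. The authors deposited FPKM per gene and library. The submitters' processing notes name featureCounts 1.5.0-p3 and hg38; the aligner, the use of strand and the annotation release are not given in the sources used here. All 58735 gene identifiers matched GENCODE 29, whose exons were used for overlaps between genes. FPKM multiplied by gene length gave whole multiples of one step for 100% of values above 0, so reads could be worked back; the deposited values already include a median-of-ratios scaling between libraries.

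Values were analysed as log2(FPKM + 1) for genes with a mean of at least 1 FPKM, in R 4.3.3 with limma 3.58.1 (a trend in the empirical Bayes step, two-sided, no block, as the study's methods name unpaired tests), with Benjamini-Hochberg adjustment over all 13585 genes tested and a threshold of 0.05. Fold changes on this scale understate changes of low genes. Shares of the ATG8 family's summed FPKM were compared by an exact permutation test, and shares of the other families carry no test. Alternatives were other pseudocounts, filters, scalings, a fit without trend, a replicate block, voom on the reads, and each library left out.

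The genes and lists were chosen with earlier results of these data known. Genes named in detail were PRMT1, genes with a p under 0.05, the smallest p and highest level in each step, the ATG8 genes, genes under the filter, and genes of the other list past the adjusted threshold. The remaining genes of each step, genes of the other list with an unadjusted p under 0.05, TFE3, MITF and neighbouring or near-copy genes were named beyond this rule.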

Additional observations from a re-analysis of the deposited data

How the results depend on the processing

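None of the 42 autophagy and mitophagy genes tested passed the adjusted threshold under any alternative except voom on reads worked back (1 gene, CALCOCO2); 9 had an unadjusted p under 0.05. Of all 13585 genes tested, 279 passed (145 higher, 134 lower). That count was 35 with no filter on low values, 473 with a filter at a mean of 5 FPKM, 43 without the trend, 927 by voom, 2655 at an unadjusted p under 0.05, and 13 to 95 with a library left out, where fewer libraries enter. Rescaling to TPM gave 355, with 222 higher and 133 lower, and median scaling 235, with 90 higher and 145 lower. The other autophagy list, with 3 genes, gave 2 after rescaling to TPM, 1 with no filter, 0 without the trend (10 had an unadjusted p under 0.05, and voom gave 5), 11 at an unadjusted p under 0.05, and 0 to 1 with a library left out. The cause of these changes in the counts was not tested, also for the fits with a library left out. The median difference of the 42 genes stayed between -0.01 and 0.02 in 15 alternatives, and the difference of PRMT1 between -2.21 and -2.09.

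When replicate number entered the fit as a block, 204 genes (105 higher, 99 lower), 0 of the 42 (10, or 23.8%, at an unadjusted p under 0.05, beside 25.7% of all genes) and 2 genes of the other list passed. Whether the numbers pair the libraries was not settled. Deviations of same-numbered libraries correlated at 0.02, 0.0631 and 0.101, and those of differently numbered libraries ran from -0.0751 to 0.0186. Each library thus correlated best with its own number, at low values. For the libraries numbered 1 the margin was small, with 0.02 beside 0.0186 and 0.0173 for the nearest other pairs. No pairing can be read from these values. With 3 libraries a group and a median standard error of 0.067, small differences in single genes could not be called.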
